A study of Mus musculus with 10 samples.

Results

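Complement genes were followed in mRNA-seq libraries of mouse adipocyte precursors (APs) cultured with or without IL-4. They were chosen by gene symbol as 9 of the 18384 genes listed in any library, namely the C1q chains C1qa, C1qb and C1qc, the protease C1ra, the components C3 and C4b, the alternative pathway proteases Cfb and Cfd, and the receptor C3ar1. The APs came from subcutaneous white adipose tissue of C57BL/6 J mice, where bead selection removed CD45- and CD31-positive cells and then kept SCA-1-positive cells. Control APs were cultured without IL-4 and numbered 1, 2 and 3. IL-4-treated APs received IL-4 in the medium from a day after seeding and were numbered 4, 5 and 6, and the mRNA of both groups was taken on day 4. The study's design text calls the 3 libraries of each group biological replicates, but which animals or cultures they came from, the age of the mice and the dose of IL-4 are not given in the sources used here, so p-values measure the spread between these libraries.

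Complement is a cascade of plasma and tissue proteins that marks microbes, immune complexes and dying cells. The classical pathway starts when C1q, built from A, B and C chains, binds a target and activates the proteases C1r and C1s, which cut C4 and C2. The lectin pathway reaches the same step through collectins, ficolins and their MASP proteases, and the alternative pathway amplifies the cleavage of C3 through factor B and factor D. Most complement proteins are made by the liver, but C1q comes mainly from macrophages and related myeloid cells, fibroblast-like cells make several of the proteases and inhibitors, and factor D, also called adipsin, is a classical product of mature fat cells. IL-4 signals through the transcription factor STAT6 and is known for driving macrophages into an alternatively activated state.

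The libraries were of nearly equal depth, with 28526782 to 28674604 expected counts in the controls and 28914003 to 29057787 with IL-4. Within a group, no pair of libraries agreed within sampling noise, with a chi-square per degree of freedom of 2.49 for the closest pair (IL-4 replicates 4 and 5). IL-4 replicate 6 stood apart from IL-4 replicates 4 and 5 at 45.8 and 36.7, and control replicate 3 from the other controls at 10.7 and 16.8. All 8 AP markers examined were expressed at a testable level, with Pdgfra at 53.39 to 57.15 FPKM and the SCA-1 gene Ly6a at 108.06 to 131.28 FPKM in the controls, although Dpp4 stayed between 0.22 and 0.40 FPKM in all libraries. FPKM counts fragments relative to transcript length and sequencing depth, and is the only scale on which levels of different genes are compared here. All 15 macrophage markers were also expressed. The most abundant, Lyz2, had a mean of 2739 FPKM in control APs and 776 FPKM with IL-4, at ranks 5 and 69 among all genes. Bulk libraries do not show which cells of the AP cultures held these mRNAs or those of C1q. Ptprc, which encodes the CD45 antigen that the beads were to remove, was at 16.95, 19.00 and 18.93 FPKM in control APs and at 8.18, 8.48 and 8.0 FPKM with IL-4. Markers of neutrophils and lymphocytes were at or near 0, with at most 5 counts in any library. Summed endothelial markers were at 12.9 to 13.5 FPKM in control APs and at 9.88 to 10.3 FPKM with IL-4, and mesothelial markers at 6.44 to 7.36 and 9.79 to 11.4 FPKM. Of the 8 mature adipocyte genes only Fabp4 was abundant, at 32.82 to 38.62 FPKM in control APs and 54.63 to 78.32 FPKM with IL-4, with Plin1 at 0 to 2 counts per library and Adipoq at 0, 0 and 3 counts in control APs and 13, 9 and 10 counts with IL-4.

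Upon IL-4 stimulation, complement genes moved in both directions. C3, C1ra and Cfb rose, C3 by far the most with a 12.7-fold change. The C1q chain mRNAs fell, with fold decreases of 2.29 (C1qa), 1.93 (C1qb) and 1.74 (C1qc). C4b and C3ar1 did not pass the test and Cfd had too few reads to be tested. Thus 3 of the 8 members tested were higher and 3 were lower by edgeR quasi-likelihood p-values that were adjusted with the Benjamini-Hochberg method across the 14009 genes tested and called below 0.05 (edgeR adjusted p). The response to IL-4 was broad: 37.4% of all genes tested passed this threshold, 19.0% as higher and 18.4% as lower. With the added requirement of more than a doubling or halving (log2 fold change past 1 or -1), which 11.0% of all genes met, C3 and C1qa remained. The median log2 fold change of the 8 members tested was -0.06, beside 0.0 over all genes. Of all genes called, 50.8% were higher under the TMM scaling used throughout, and 25.6% were higher when libraries were scaled by their totals alone, which moved the median of all genes to -0.17. The calls of C3, C1ra, Cfb and the C1q chains held under both scalings.

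**Figure D1:**
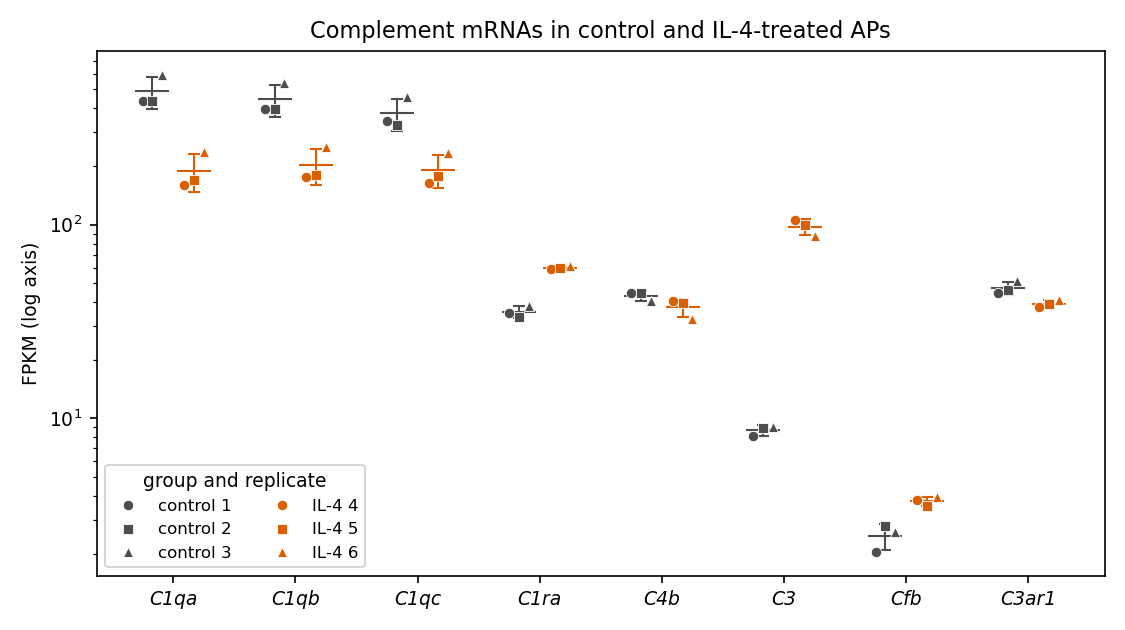
Level of each complement mRNA in FPKM on a log axis, for control libraries (grey) and IL-4 libraries (orange), with 1 symbol per library, a horizontal line at the group mean and bars of 1 SD (n = 3 each). The C1q chains sat above all other members in every control library, and C3 moved from 8.09 to 9.06 FPKM in control APs to 87.08 to 105.33 FPKM with IL-4, past C1ra, C4b and C3ar1. Cfd is left out because it had 2 counts at most.

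Among complement mRNAs in the control AP cultures, which also held macrophage marker mRNAs, the C1q chains were the most abundant. Their genes lie side by side on the minus strand of chromosome 4, in an interval of 18719 bases at chr4:136880126-136898844 of GRCm38.p6, whose chromosome sequences are those of mm10, the build named by the authors. C1qb (Entrez gene 12260, chr4:136880126-136886200) is separated by 3600 bases from C1qc (Entrez gene 12262, chr4:136889801-136892936), which is separated by 2979 bases from C1qa (Entrez gene 12259, chr4:136895916-136898844). Since the 3 mRNAs moved together, the 250 bases before the start of C1qb and C1qc are given here, 5′ to 3′ on the coding strand from RefSeq (GRCm38.p6), at chr4:136886201-136886450 and chr4:136892915-136893164. The start listed for C1qc lies slightly inside the outer boundary of the gene. Capitals mark the letters ACTTCCT, which on the other strand read AGGAAGT, a core recognised by PU.1, a transcription factor of macrophages.
C1qb: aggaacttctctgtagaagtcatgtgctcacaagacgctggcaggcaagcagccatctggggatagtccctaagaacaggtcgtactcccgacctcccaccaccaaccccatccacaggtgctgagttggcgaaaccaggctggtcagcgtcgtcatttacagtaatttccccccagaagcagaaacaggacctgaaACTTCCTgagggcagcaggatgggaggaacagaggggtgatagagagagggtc
C1qc: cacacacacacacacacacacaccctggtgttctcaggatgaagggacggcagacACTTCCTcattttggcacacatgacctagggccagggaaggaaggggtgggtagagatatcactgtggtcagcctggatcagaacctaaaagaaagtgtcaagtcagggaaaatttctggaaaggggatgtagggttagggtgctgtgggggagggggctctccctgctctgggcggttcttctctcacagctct
In C1qb these letters lay 53 to 47 bases before the start, and in C1qc 195 to 189 bases before it. Of 32851 RefSeq promoter windows of this length, 7.69% held them on either strand. Such a match is a description of the sequence and not evidence of binding. Spi1, the gene of PU.1, is 1 of the 15 macrophage markers examined, of which 12 were lower with IL-4. It had a mean of 43.9 FPKM in control APs and 29.0 FPKM with IL-4 (log2 fold change -0.43, edgeR adjusted p = 0.0297). Whether its level bears on that of C1q was not tested.

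C1qa, the A chain, was at 434.27, 435.22 and 595.64 FPKM in control APs and at 159.87, 170.19 and 236.73 FPKM with IL-4. Every control library was above every IL-4 library, and within each group the library that stood apart from the others (control replicate 3, IL-4 replicate 6) was the highest. Genes outside complement also differed in IL-4 replicate 6. There Ly6a was the highest of its group (291.12 FPKM against 226.06 and 217.03) and Pdgfra the lowest (59.53 FPKM against 77.43 and 77.33). The mean of C1qa fell from 488 ± 92.9 to 189 ± 41.7 FPKM (SD, n = 3 each), with a fitted log2 fold change of -1.20 (standard error 0.17, edgeR adjusted p = 0.000821). Among all genes ordered by mean FPKM, C1qa went from rank 121 to rank 310.

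C1qb, the B chain, was at 397.01, 394.77 and 539.63 FPKM in control APs and at 176.83, 181.12 and 252.05 FPKM with IL-4. The groups did not overlap and the same 2 libraries were the highest of their groups. Its mean fell from 444 ± 83.0 to 203 ± 42.2 FPKM (SD, n = 3 each), with a fitted log2 fold change of -0.95 (standard error 0.16, edgeR adjusted p = 0.0022). C1qc, the C chain, was at 343.92, 327.8 and 458.62 FPKM in control APs and at 163.46, 177.95 and 235.31 FPKM with IL-4. Here too no library of one group reached the range of the other. Its mean fell from 377 ± 71.3 to 192 ± 38.0 FPKM (SD, n = 3 each), with a fitted log2 fold change of -0.80 (standard error 0.16, edgeR adjusted p = 0.00499). Without control replicate 3, the log2 fold changes of C1qa, C1qb and C1qc were -1.04, -0.80 and -0.64, and without IL-4 replicate 6 they were -1.37, -1.11 and -0.95, with all calls kept.

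The order of the chains differed between the groups. In each control library C1qa was above C1qb and C1qb above C1qc. With IL-4, C1qb was above C1qa in every library, while C1qc was above C1qa in replicates 4 and 5 and below it in replicate 6. The FPKM ranges of the 3 chains overlapped in both groups. As a share of the summed C1q FPKM, C1qa took 37.0%, 37.6% and 37.4% in control APs and 32.0%, 32.2% and 32.7% with IL-4. The share of C1qc went the other way, from 29.3%, 28.3% and 28.8% to 32.7%, 33.6% and 32.5%. C1qb kept 33.8% to 34.1% of the sum in control APs and 34.2% to 35.4% with IL-4. The mean share of C1qa was 37.3% ± 0.324 in control APs and 32.3% ± 0.378 with IL-4, and that of C1qc 28.8% ± 0.476 and 32.9% ± 0.603 (SD, n = 3 each). The shares of C1qa and C1qc did not overlap between the groups and differed by more than the spread between replicates. Those of C1qb did not overlap either, but the means were closer, at 33.9% ± 0.164 and 34.8% ± 0.567 (SD, n = 3 each). No test was run on these shares.

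**Figure D2:**
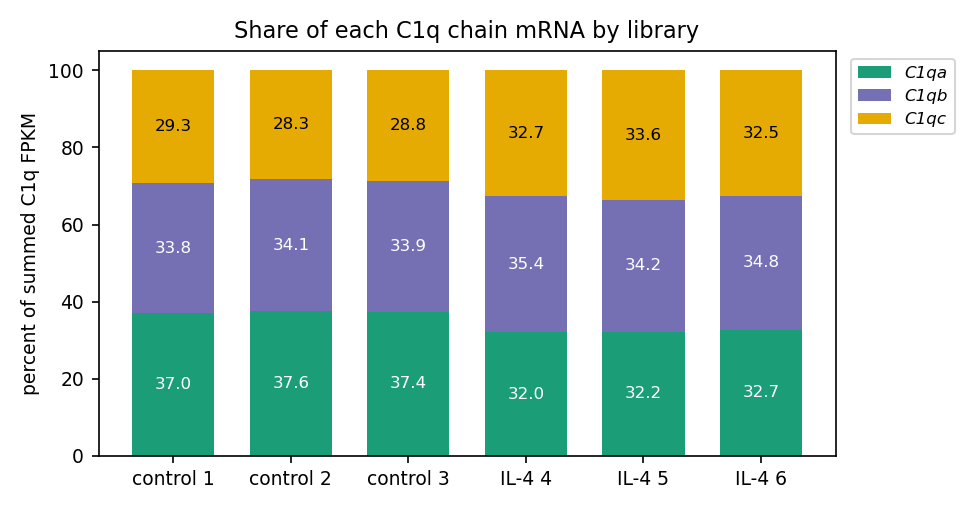
Share of C1qa, C1qb and C1qc in the summed C1q FPKM of each library, in percent, as stacked bars that add to 100. C1qa took 37.0% to 37.6% without IL-4 and 32.0% to 32.7% with it.

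The fall of C1q ran beside that of the macrophage markers. Of 15 markers tested, 12 were lower with IL-4, 2 were higher, among them Mrc1, and Cd68 did not pass, with a median log2 fold change of -0.99. Over all genes tested, 18.4% were lower and 19.0% higher. None of the 15 was at 0 in any library, although Cx3cr1 was down to 3 to 5 counts per library with IL-4. Csf1r, the receptor that macrophages need to survive, was at 83.93, 93.03 and 101.54 FPKM in control APs and at 39.48, 40.21 and 39.45 FPKM with IL-4 (log2 fold change -1.05, edgeR adjusted p = 2.11e-05). Ptprc was lower by nearly the same factor (log2 fold change -0.99, edgeR adjusted p = 1.87e-05), Adgre1, which encodes the F4/80 antigen, by less (log2 fold change -0.24, edgeR adjusted p = 0.0275) and Aif1 by far more (log2 fold change -4.43, edgeR adjusted p = 4.65e-05). Cd68, a lysosomal protein of macrophages, had a log2 fold change of 0.38 (edgeR adjusted p = 0.0572). In bulk samples such as these, fewer cells of a type and less RNA per cell cannot be told apart.

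How the C1q level compared with that of the macrophage markers depended on the markers taken. The summed C1q FPKM was 1175, 1158 and 1594 in control APs and 500, 529 and 724 with IL-4. The summed FPKM of the 15 markers, of which Lyz2 gave the largest part, ranged from 3732 to 4790 in control APs and from 1542 to 2019 with IL-4. C1q per marker FPKM was 0.312, 0.310 and 0.333 in control APs and 0.324, 0.326 and 0.359 with IL-4, so that the groups overlapped and the ratio of their means was 1.06. Without Lyz2, the other 14 markers summed to 1358 ± 180 FPKM in control APs and 951 ± 115 FPKM with IL-4 (SD, n = 3 each). C1q per FPKM of these was 0.943, 0.917 and 1.02 in control APs and 0.575, 0.587 and 0.669 with IL-4, with no overlap and a ratio of means of 0.636. Per Csf1r alone, C1q was 14.0, 12.4 and 15.7 against 12.7, 13.2 and 18.4, with a ratio of means of 1.05. What part the macrophage content had in the fall of C1q was not tested. Most AP markers were not lower. Of 8 tested, 5 were higher, among them Pdgfra (log2 fold change 0.54, edgeR adjusted p = 0.00655) and Ly6a (log2 fold change 1.20, edgeR adjusted p = 0.000104). Only Pdgfrb was lower (log2 fold change -0.66, edgeR adjusted p = 0.000989), and 2 did not pass. Of all genes tested, 19.0% were higher and 18.4% lower. Col1a1 gave most of the summed level of the AP markers, and the other 7 together were at 981 ± 23.3 FPKM in control APs and at 1177 ± 72.0 FPKM with IL-4 (SD, n = 3 each).

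**Figure D3:**
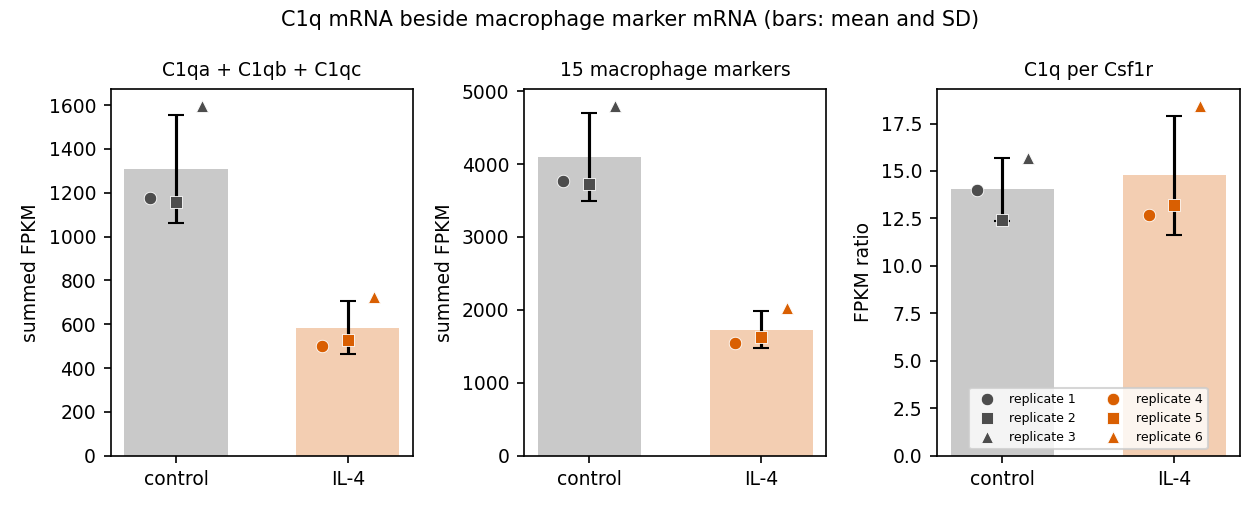
Summed FPKM of the C1q chains (left), summed FPKM of 15 macrophage markers (middle) and C1q per Csf1r (right) in each library, with bars at the group mean and error bars of 1 SD (n = 3 each). C1q was 1158 to 1594 FPKM in control APs and 500 to 724 FPKM with IL-4. The ranges of C1q per Csf1r overlapped (12.4 to 15.7 and 12.7 to 18.4). Those of C1q per FPKM of the 14 markers other than Lyz2, not drawn here, did not overlap (0.917 to 1.02 and 0.575 to 0.669).

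The protease downstream of C1q moved the opposite way. C1ra (Entrez gene 50909, chr6:124512621-124523440), the mouse C1r gene expressed in most tissues, was at 34.98, 33.49 and 38.28 FPKM in control APs and at 59.16, 60.13 and 61.08 FPKM with IL-4. The groups did not overlap, and the IL-4 libraries lay close together. Its mean rose from 35.6 ± 2.45 to 60.1 ± 0.96 FPKM (SD, n = 3 each), with a fitted log2 fold change of 0.93 (standard error 0.06, edgeR adjusted p = 1.28e-05). C1rb, a near-identical copy on the same chromosome at chr6:124570430-124581044, had 0 to 2.47 expected counts per library. Expected counts are given after shared reads are assigned, so how many reads fitted both genes is not known. The FPKM of C1q per FPKM of C1ra was 36.6 ± 4.39 in control APs and 9.70 ± 1.87 with IL-4 (SD, n = 3 each). No match to any of the 6 motifs searched was present in the 250 bases before C1ra.

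C4b, which encodes the C4 protein cut by C1s, was at 44.30, 44.44 and 40.17 FPKM in control APs and at 40.20, 39.45 and 32.61 FPKM with IL-4. The lowest control library was below the highest IL-4 library, so the groups overlapped, and IL-4 replicate 6 was the lowest of all. The log2 fold change was -0.02 (standard error 0.10, edgeR adjusted p = 0.869), and it was 0.08 without IL-4 replicate 6 (edgeR adjusted p = 0.32). C4b (Entrez gene 12268) lies at chr17:34728139-34743902, near its close copy C4a, which took 0.0542% to 0.291% of the counts of the pair.

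Of the 9 genes of the classical pathway list that were tested, 3 were higher (C1ra, C1s1 and C2, which encode proteases), 3 were lower (the C1q chains) and 3 did not pass. The counts of this and the lectin list stand beside 19.0% higher and 18.4% lower over all genes tested. C1s1 was at 84.86, 86.52 and 90.30 FPKM in control APs and at 115.94, 117.05 and 114.97 FPKM with IL-4, a log2 fold change of 0.59 (edgeR adjusted p = 9.27e-05). Some of its reads were shared with its copy C1s2. C2 was at 14.87, 15.75 and 15.03 FPKM in control APs and at 24.80, 24.51 and 25.38 FPKM with IL-4, a log2 fold change of 0.88 (edgeR adjusted p = 1.19e-05). Both were higher in 3 of 3 IL-4 libraries than in any control library. How many of all genes tested were separated in this way was not counted. Of the 9 lectin pathway genes on the list, 3 were tested and 2 of these were higher. Masp1, the protease that opens the lectin pathway and also cuts C2, rose from 54 to 73 counts without IL-4 to 1503 to 2198 counts with it, a log2 fold change of 5.08 (33.9-fold, edgeR adjusted p = 1.14e-06). Colec12, a membrane scavenger collectin, had 73.50 to 74.40 FPKM in control APs and 62.74 to 66.53 FPKM with IL-4 with a log2 fold change of -0.02 (edgeR adjusted p = 0.801). With library totals in place of TMM it passed (log2 fold change -0.19, edgeR adjusted p = 0.0179), where the median of all genes was -0.17.

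C3, the component on which all pathways converge, showed the largest change of the members. It had 8.09, 8.92 and 9.06 FPKM in control APs and 105.33, 99.72 and 87.08 FPKM with IL-4. The lowest IL-4 library was far above the highest control library, and IL-4 replicate 6 was the lowest of its group. The mean rose from 8.69 ± 0.524 to 97.4 ± 9.35 FPKM (SD, n = 3 each), on 1174 to 1319 expected counts without IL-4 and 12859 to 15459 with it. The log2 fold change was 3.66 (standard error 0.10, edgeR adjusted p = 1.87e-07), and it was 3.75 without IL-4 replicate 6. C3 moved from rank 6935 to rank 653 among all genes ordered by mean FPKM. The FPKM of C3 per FPKM of C4b went from 0.203 ± 0.0215 to 2.61 ± 0.0723 (SD, n = 3 each), so that C3 passed from well below C4b to above it in all libraries.

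C3 (Entrez gene 12266) lies on the minus strand at chr17:57203967-57228136, and the microRNA gene Mir6978 lies within it. Because C3 changed most, the 250 bases before its start are shown, 5′ to 3′ on the coding strand, at chr17:57228137-57228386 from RefSeq (GRCm38.p6). Capitals mark TTGCGAAA, a match to TTGCNNAA, the core bound by C/EBP factors, which act in acute phase responses and in fat cell differentiation.
C3: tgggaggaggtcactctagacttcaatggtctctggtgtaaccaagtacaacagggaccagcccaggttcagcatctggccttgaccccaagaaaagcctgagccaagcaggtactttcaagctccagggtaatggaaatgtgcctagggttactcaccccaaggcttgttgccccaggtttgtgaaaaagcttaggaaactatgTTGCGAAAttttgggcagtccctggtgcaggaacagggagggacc
This match lay 45 to 38 bases before the start, and 9.56% of the 32851 windows held such a match on either strand. Windows were available for 6 of the 9 members (C1qb, C1qc, C1ra, C3, Cfd and C3ar1). None of these 6 held TTC and GAA with 4 bases between them, the spacing that STAT6 binds, which 5.85% of all windows held, nor TTCNNNGAA, the spacing of other STAT factors, which 7.02% held. The core of the interferon response element (GAAA, any 2 bases, GAAA) and a form of the NF-kappaB site (GGGA, any base, TTTCC) were absent as well and occurred in 2.98% and 0.356% of all windows. Each window that had a match held a single motif, so no matches overlapped. An absent match says only that these letters are not in this stretch.

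Of the alternative pathway, Cfb rose and Cfd was hardly read. Cfb (Entrez gene 14962, chr17:34856374-34862514) encodes factor B, the protease of the alternative C3 convertase, and the microRNA gene Mir6972 lies within it. It was at 2.05, 2.79 and 2.58 FPKM in control APs and at 3.79, 3.53 and 3.93 FPKM with IL-4. All IL-4 libraries were above all control libraries, although the level remained low, with 158 to 215 counts without IL-4 and 276 to 309 with it. The mean rose from 2.47 ± 0.381 to 3.75 ± 0.203 FPKM (SD, n = 3 each), with a fitted log2 fold change of 0.77 (standard error 0.12, edgeR adjusted p = 0.00174). Cfd (Entrez gene 11537, chr10:79890853-79892655), which encodes adipsin, had 1, 2 and 0 expected counts in control APs and 0 in every IL-4 library. A count of 0 allows up to 3 counts at this depth, so both groups were at or under that limit, and no fold change is given. Cfp, which encodes properdin, a stabiliser of the convertase that myeloid cells make, was at 39.13, 43.45 and 52.11 FPKM in control APs and at 23.70, 22.31 and 31.11 FPKM with IL-4. Its mRNA fell, with a log2 fold change of -0.63 (edgeR adjusted p = 0.00805).

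Most of the tested inhibitors in solution rose with IL-4, as C3 did. Of the 5 soluble regulators tested, 4 were higher, none was lower and 1 did not pass. Over all genes tested, 19.0% were higher and 18.4% lower. Serping1, which encodes the C1 inhibitor that blocks C1r, C1s and the MASP proteases, was the most abundant, at 151.58, 153.21 and 176.44 FPKM in control APs and at 295.32, 295.58 and 328.19 FPKM with IL-4 (log2 fold change 1.11, edgeR adjusted p = 1.46e-05). Cfi, the gene of the protease factor I that destroys C3b and C4b, was at 0.56, 0.47 and 0.87 FPKM in control APs and at 4.23, 3.75 and 4.01 FPKM with IL-4 (log2 fold change 2.83, edgeR adjusted p = 1.41e-05). Vtn, the gene of vitronectin, which restrains the membrane attack complex, was called higher as well (log2 fold change 1.79, edgeR adjusted p = 0.00043), on 9 to 12 counts without IL-4 and 31 to 34 with it. In Serping1, Cfi and Vtn all IL-4 libraries were above all control libraries. The share of all genes tested with such a separation was not counted.

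Regulators at the cell surface went both ways, with 3 of 6 tested genes higher and 2 lower. The shares over all genes tested were 19.0% higher and 18.4% lower. Cd55, which speeds the decay of C3 convertases, was at 0.95, 0.99 and 1.06 FPKM in control APs and at 7.92, 7.45 and 8.10 FPKM with IL-4 (log2 fold change 3.14, edgeR adjusted p = 2.01e-07). Susd4, the gene of another membrane inhibitor of complement, had 1, 5 and 2 counts in control APs and 403, 425 and 363 counts with IL-4. Its log2 fold change of 7.30 (edgeR adjusted p = 5e-07) rests on these few control reads and ranged from 6.93 to 8.09 with single libraries left out. Cr1l, the gene of the rodent regulator Crry, was higher by a log2 fold change of 0.49 (edgeR adjusted p = 0.000767). Cd59a, whose protein stops assembly of the membrane attack complex, was lower, at 15.84, 17.01 and 19.46 FPKM in control APs and at 7.15, 6.33 and 8.39 FPKM with IL-4 (log2 fold change -1.08, edgeR adjusted p = 0.000172).

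C3ar1, the receptor for the C3a fragment and found mainly on myeloid cells, was at 44.30, 45.83 and 51.10 FPKM in control APs and at 37.72, 38.95 and 40.92 FPKM with IL-4. The FPKM of the groups did not overlap, with means of 47.1 ± 3.57 and 39.2 ± 1.61 (SD, n = 3 each). In the fit with TMM scaling, however, its log2 fold change was -0.09 (standard error 0.07, edgeR adjusted p = 0.324). With library totals alone it was -0.26 (edgeR adjusted p = 0.0167), where the median over all genes was itself -0.17, so the call depends on the scaling. C3ar1 (Entrez gene 12267) lies at chr6:122847140-122856157. The FPKM of C3ar1 per Csf1r FPKM was 0.528, 0.493 and 0.503 in control APs and 0.955, 0.969 and 1.04 with IL-4, with no overlap. The ranges of C1q per Csf1r did overlap. This contrast rests on a single marker, and log2 fold changes of the macrophage markers ran from -8.65 (Cx3cr1) to 0.82 (Mrc1).

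The receptors for the C5a fragment fell. C5ar1 was at 51.21, 52.94 and 65.20 FPKM in control APs and at 10.09, 11.16 and 13.42 FPKM with IL-4, a log2 fold change of -2.11 (edgeR adjusted p = 6.25e-06). C5ar2, its low-level relative, had a log2 fold change of -1.55 (edgeR adjusted p = 0.000116). Cd93, the gene of a surface protein of myeloid and endothelial cells once described as a C1q receptor, was at 25.81, 30.27 and 30.01 FPKM in control APs and at 5.93, 5.18 and 5.07 FPKM with IL-4 (log2 fold change -2.24, edgeR adjusted p = 1.37e-06). Among the integrins that bind fragments of C3, Itgax, the alpha chain of complement receptor 4, rose from 1.68, 1.81 and 1.34 FPKM to 24.05, 26.26 and 24.76 FPKM, a log2 fold change of 4.13 (edgeR adjusted p = 1.99e-07). Itgb2, the beta chain that complement receptors 3 and 4 share, was higher by a log2 fold change of 0.52 (edgeR adjusted p = 0.000827). Itgam, the alpha chain of complement receptor 3, had a log2 fold change of -0.27 (edgeR adjusted p = 0.0397) that no longer passed without control replicate 2 (edgeR adjusted p = 0.131), control replicate 3 (0.12) or IL-4 replicate 4 (0.073). C1qbp, a mostly mitochondrial protein that can bind C1q, was at 73.40 to 82.15 FPKM in control APs and at 57.81 to 78.55 FPKM with IL-4, with overlapping groups (log2 fold change -0.11, edgeR adjusted p = 0.479). Without IL-4 replicate 6 it passed (log2 fold change -0.25, edgeR adjusted p = 0.00727).

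**Figure D4:**
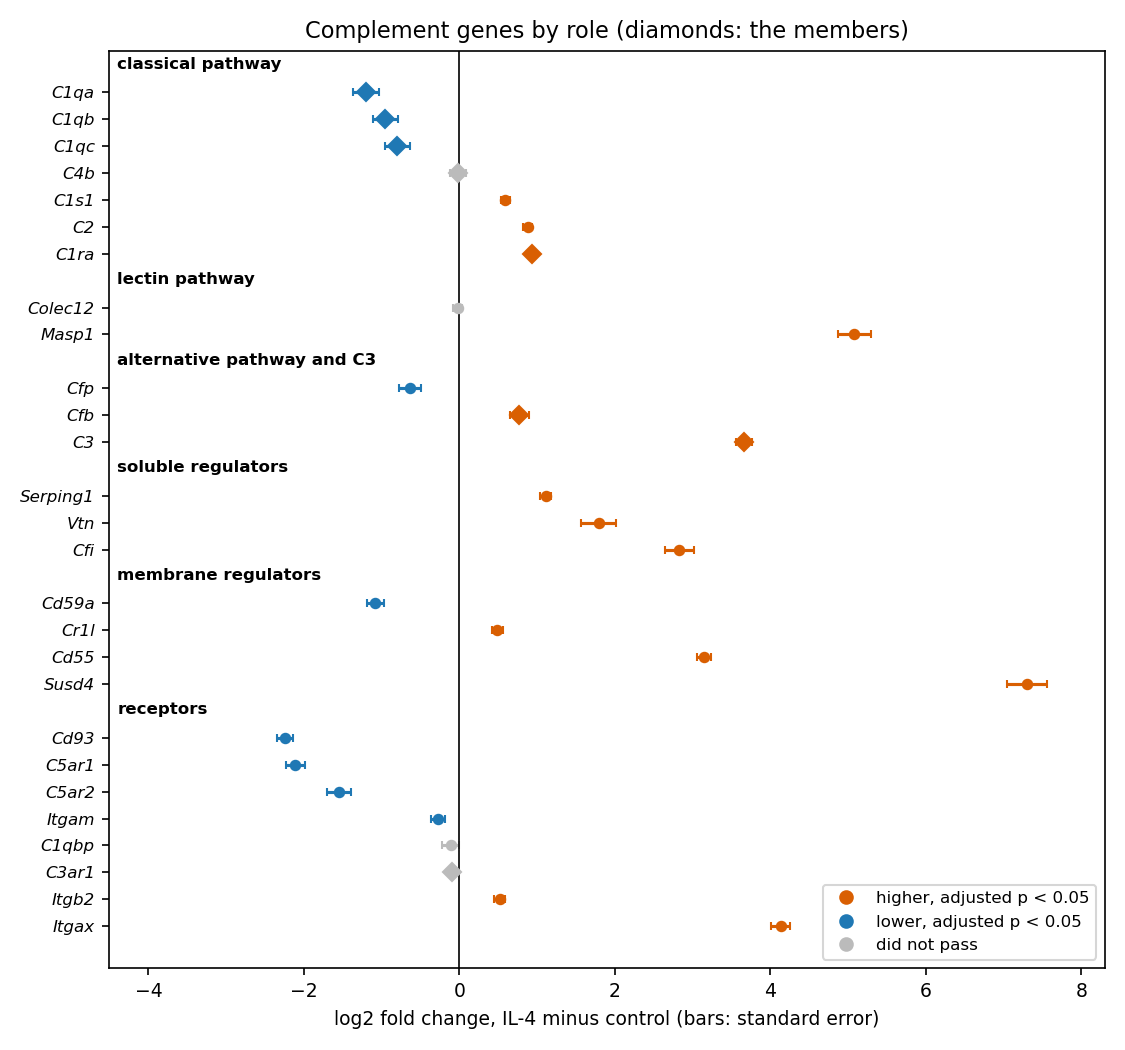
Log2 fold change (IL-4 minus control) of the tested members (diamonds) and the other named complement genes (circles), by role, with bars of 1 standard error from edgeR. Orange marks genes higher and blue genes lower at an adjusted p under 0.05, and grey those that did not pass. Proteases, C3 and soluble inhibitors lie to the right of 0, and the C1q chains, Cfp, Cd59a, Cd93 and the C5a receptors to the left.

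Over the whole list of 59 complement genes, of which the members are a part, 53 were listed in at least 1 library and 37 could be tested. Of these, 16 were higher, 10 were lower and 11 did not pass, beside 19.0% higher and 18.4% lower over all genes tested, and the median log2 fold change was 0.04. Leaving out the members, 13 of 29 tested genes were higher, 7 were lower and 9 did not pass, with a median of 0.20. Beyond a log2 fold change of 1, the whole list held 9 higher and 5 lower genes, where 11.0% of all genes tested passed in either direction. Of the 7 terminal components, which form the membrane attack complex, 2 were tested and neither was called. Hc, the gene of C5, was at 4.39 to 5.78 FPKM in control APs and at 4.54 to 5.94 FPKM with IL-4 (log2 fold change 0.29, edgeR adjusted p = 0.148), and C6, C7 and C9 had at most 8 counts in any library. Mbl1, Mbl2, Fcnb, C8a, C8b and Cpn1 were not listed in any library and were taken as 0.

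The 9 members together held 1309, 1293 and 1735 FPKM in control APs and 746, 771 and 950 FPKM with IL-4. C1q made up 90.4% ± 1.28 of this sum in control APs and 70.6% ± 4.93 with IL-4, and C3 went from 0.610% ± 0.0841 to 12.1% ± 2.58 (SD, n = 3 each). In control APs the order of mean FPKM was C1qa, C1qb, C1qc, C3ar1, C4b, C1ra, C3, Cfb and Cfd. The control ranges of C4b and C3ar1 overlapped slightly. With IL-4 the order was C1qb, C1qc, C1qa, C3, C1ra, C3ar1, C4b, Cfb and Cfd. The ranges of the C1q chains overlapped in both groups. With IL-4 those of C3ar1 and C4b overlapped too, and C3 was above C1ra in every library.

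Genes whose profile over the 6 libraries was most like that of each member were found by the root mean square distance between centred log2 normalized counts, among 11418 genes with a mean of at least 100 normalized counts. Since the profile is set largely by the group difference, this is a description of likeness. The nearest to C1qa were Tnfaip8l2 (distance 0.0623), Aoah (0.0785) and Fcer1g (0.0883), and to C1qb Cd48 (0.0561), Pld4 (0.0577) and Fcer1g (0.06). For C1qc they were Lilr4b (0.0482), Cnbd2 (0.0483) and Card9 (0.0613). Fcer1g, a signalling chain of Fc receptors, is on the macrophage marker list, and Tnfaip8l2, Aoah, Cd48, Pld4, Lilr4b and Card9 are known from immune cells. Nearest to C1ra were Ggt5 (0.0407), Psap (0.051) and Fam3c (0.0515). C3 was nearest to Chrdl1 (0.0776), Gabra3 (0.105) and Il1rl1 (0.109), the last of which encodes the IL-33 receptor. Cfb was nearest to Gdpd2 (0.0757), Ostn (0.103) and Slc25a13 (0.104). The flat profiles of C4b and C3ar1 were matched more closely, by Wdr59 (0.0156), Arid1a (0.0177) and Rabgap1 (0.0183), and by Ccnc (0.0169), Smarcd2 (0.0172) and Cep89 (0.0207).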

How the data were processed

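The mRNA libraries of 3 control and 3 IL-4-treated AP samples were used. The small RNA libraries were not analysed here. Poly-A mRNA was sequenced on the BGISEQ-500, and the authors filtered reads with SOAPnuke, mapped them to mm10 with HISAT and used Bowtie2 with RSEM for gene levels (StringTie is also among the submitters' listed tools, versions not stated). The files the authors deposited give expected counts per gene, which are not normalized and of which 87.0% of those above 0 are whole numbers, the others holding reads shared between genes. They also give FPKM, in which the authors accounted for transcript length and sequencing depth. A gene absent from a library's list was taken as 0. Whether counting used strand is not given in the sources used here. A single row that names no gene (at most 0.00022% of a library's counts) was left out.

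After rounding the expected counts, low genes were removed by filterByExpr (at least 10 counts, total at least 15) and TMM factors (0.932 to 1.07) were applied with edgeR 4.0.16 (R 4.3.3). Control and IL-4 libraries were compared by its quasi-likelihood test, adjusted by Benjamini-Hochberg across 14009 genes (biological coefficient of variation 0.0939). Log2 fold changes and p-values come from this fit, and FPKM is given as the level. Depth limits genes of few reads, for which 3 counts per library was the floor, and such limits cover counting error only. The fit was tested on simulated data in which far fewer genes changed than were called here. That test does not cover so broad a response. Alternatives were DESeq2 1.42.0, its size factors in edgeR, upper-quartile scaling, library totals, no low-count filter, limma 3.58.1 on FPKM (log2, pseudocount 1 or 0.1), a log2 fold change beyond 1, and each library left out in turn. Adding the C4a reads to C4b and leaving Lyz2 out of the macrophage markers were chosen after seeing the data. Tables and plots were made with Python 3.11.15, numpy 2.4.6, pandas 2.3.3 and matplotlib 3.10.9. Gene positions and promoters come from RefSeq on GRCm38.p6, with 250 bases before the start searched on both strands.

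The members and lists were chosen with earlier results of these data known. Named genes are all members, other complement genes that passed at 0.05 with a log2 fold change past 1 in size or had a mean of at least 10 FPKM in either group, a set of chosen markers, and the 3 genes nearest to each member. Hc, C6, C7, C9, Pdgfrb, Col1a1, Spi1, Lyz2, Fabp4, Cx3cr1, Mrc1, Dpp4 and the copies C1rb, C1s2 and C4a were named after their values were seen. Some genes that this rule would name are not reported here.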

Additional observations from a re-analysis of the deposited data

How the results depend on the processing

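No paired analysis was possible because the control libraries are numbered 1 to 3 and the IL-4 libraries 4 to 6, so no number is shared. The directions and calls of C3, C1ra, Cfb and the C1q chains were kept under all 14 alternatives fitted for each. These included adding the C4a reads to C4b, which left the counts of these genes unchanged. They did not include the requirement of a log2 fold change beyond 1, under which only C3 and C1qa kept their call. The log2 fold change ranged from 3.34 to 3.75 for C3, from 0.74 to 0.98 for C1ra, from 0.46 to 0.87 for Cfb, from -1.38 to -1.04 for C1qa, from -1.13 to -0.80 for C1qb and from -0.97 to -0.64 for C1qc. C3ar1 passed with library totals (-0.26, adjusted p = 0.0167) and with limma on FPKM (adjusted p = 0.0179 and 0.018), which gave 4 lower members in place of 3, and its adjusted p ranged from 0.0167 to 0.712 over all alternatives. Library totals called 1704 of all genes higher and 4963 lower, in place of 2663 and 2582.

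C4b, which passed under none of them, ranged from -0.08 to 0.08 with single libraries left out, with 0.01 without control replicate 2 and 0.08 without IL-4 replicate 6 against -0.02 with all libraries. Colec12 ranged from -0.04 to 0.02, the latter without IL-4 replicate 6. Requiring a log2 fold change beyond 1 left 1 higher and 1 lower member in place of 3 and 3, and 9 higher and 5 lower complement genes in place of 16 and 10, since fewer genes can pass both criteria. C1q relative to the macrophage markers (IL-4 over control) was 1.06 with all 15 markers, 1.05 with Csf1r alone and 0.636 without Lyz2, which holds the largest part of the marker sum. Shares of the C1q sum from expected counts in place of FPKM were 37.8% and 32.7% for C1qa in control and IL-4-treated APs (37.3% and 32.3% with FPKM) and 33.6% for C1qb in control APs (33.9%), because counts are not scaled by length. Of all single-gene values under the alternatives, 379 kept their direction and their side of the threshold, and 3 changed sign (C4b and Colec12, neither passing). A further 7 newly passed (C3ar1, Colec12 and C1qbp). The remaining 3 no longer passed, which were Itgam without control replicate 2, control replicate 3 or IL-4 replicate 4. Few reads limit Cfd, Vtn and the control level of Susd4.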
